A study of Mus musculus with 6 samples.

Results

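Antioxidant and NADPH-producing genes of mouse liver were followed across 6 RNA sequencing libraries. The set holds 10 genes picked by name, out of 20914 listed in the deposited count table. Of these, 6 are classical targets of the transcription factor NRF2 (Nqo1, Gclc, Gclm, Hmox1, Txnrd1 and Srxn1) and 4 encode enzymes of the pentose phosphate pathway (G6pdx, Pgd, Taldo1 and Tkt). All 10 were found in the table and all 10 passed the filter on low counts. The libraries fall into 2 groups of 3, labelled PBS and DOX, and the comparison was DOX against PBS. Every library carries the genotype BucheKI/KI-Hep, with CKI and Alb-Cre in its name, and every library is labelled with BDL treatment, so that the knock-in, the Cre driven by the albumin promoter of hepatocytes and the BDL procedure are shared by PBS and DOX. The labels explain neither DOX, S10D nor BDL (in mouse liver studies the last usually means bile duct ligation), and age and time are not given there. The series title concerns butyrylcholinesterase, an enzyme that hydrolyses choline esters, and its effect on hepatic stellate cells.

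NRF2, encoded by Nfe2l2, is a transcription factor that KEAP1 normally holds in the cytosol and delivers to degradation. Oxidants and electrophiles modify KEAP1, after which NRF2 pairs with a small MAF protein and binds antioxidant response elements in the regulatory DNA of genes for glutathione synthesis, thioredoxin recycling, quinone reduction and heme breakdown, while BACH1 competes for such elements. Many of these enzymes consume NADPH. The pentose phosphate pathway supplies it in its oxidative branch and returns the sugar phosphates to glycolysis in its non-oxidative branch, and in liver the same NADPH also serves fatty acid and cholesterol synthesis.

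Total counts were 32826493 to 41102844 per library. Hepatocyte markers were abundant: Alb alone took 4.87% to 6.09% of the counts in the PBS libraries and DOX replicate 2, and 10.1% and 10.2% in DOX replicates 1 and 3. Bche, the gene of butyrylcholinesterase, stood at 192.8 to 244.9 CPM (counts relative to library size, scaled by the TMM method) in PBS and at 969.2, 447.5 and 595.0 CPM in DOX replicates 1 to 3. Its log2 fold change of 1.67 missed the threshold of 0.05 (edgeR quasi-likelihood test, adjusted p = 0.106). The labels do not say that the libraries come from separate animals, so p-values here reflect the scatter of 3 libraries per group, part of which may be technical. In a bulk sample, fewer cells of a type and less RNA per cell cannot be told apart.

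The sequence that NRF2 and small MAF proteins are known to recognise was searched for in RefSeq promoters of GRCm38.p6, each 250 bases before to 50 after a transcription start, as the letters TGACNNNGC on both strands. The table matched 8 of the 10 genes (Gclc and Hmox1 were not matched), with 11 windows. A match lay in a window of 5 genes, and of all genes with such promoters, 14.0% had at least 1 match. For Txnrd1 and Pgd, windows at other starts of the same gene held no match. Letters more than 250 bases before a start were not searched, so a gene without a match here may have one elsewhere. The matches are shown because they are the only letters of this kind found in these windows, and the capitals mark the match, read on the strand of the gene. Those of Gclm, Txnrd1 and G6pdx lie before the RefSeq start of their window, at 134, 92 and 57 bases from it (first base of the match). Those of Srxn1 and Pgd lie after the start of theirs. By the gene bounds given below, which are from another annotation, only the match of Gclm lies outside its gene. Those of Txnrd1, G6pdx, Srxn1 and Pgd lie inside, so that the start used need not be the outermost one.
Gclm, chr3:122245398-122245456, plus strand: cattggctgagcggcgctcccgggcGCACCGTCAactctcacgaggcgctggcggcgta
Txnrd1, chr10:82859089-82859147, plus strand: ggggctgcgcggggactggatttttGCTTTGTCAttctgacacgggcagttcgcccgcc
G6pdx, chrX:74428904-74428962, minus strand: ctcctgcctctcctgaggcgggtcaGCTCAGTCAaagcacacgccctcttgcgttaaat
Srxn1, chr2:152105542-152105570, plus strand: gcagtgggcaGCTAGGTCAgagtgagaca
Pgd, chr4:149166061-149166089, minus strand: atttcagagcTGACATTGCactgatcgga
The match in Pgd reads in the gene's own direction and the other 4 in the opposite direction. A match describes the letters only, and the libraries hold no measurement of binding.

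None of the 10 genes changed between DOX and PBS at an adjusted p of 0.05 (edgeR quasi-likelihood test, lowest adjusted p = 0.380, for Tkt). DESeq2 and limma-voom also called 0 of the 10. Across all 13725 genes tested, edgeR called 4, or 0.0291%, and limma-voom 2, or 0.0146%, while DESeq2 called 176 of 20910, or 0.842%. At an unadjusted p under 0.05 edgeR gave 3 of the 10 genes, Tkt, Taldo1 and Pgd, where 9.9% of all genes tested were under that value. The log2 fold change was positive for 9 of the 10 genes, Hmox1 being the exception, against 47% of all genes tested. Scaled by library size only, Gclm, Txnrd1 and G6pdx were negative as well, and the median of all genes tested moved from -0.02 to -0.15. The median log2 fold change was 0.20 over the 6 NRF2 targets and 0.25 over the 4 pentose phosphate genes. The former was 0.35 without DOX replicate 1, 0.02 without DOX replicate 3 and 0.064 when scaled by library size only, and the latter was 0.11 on that scale. By library size only, the log2 fold change of Nqo1 was 0.16, of Gclc 0.21, of Srxn1 0.21, of Pgd 0.11, of Taldo1 0.12 and of Tkt 0.30, and on log2(FPKM + 0.1) that of Nqo1 was 0.037.

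**Figure D1:**
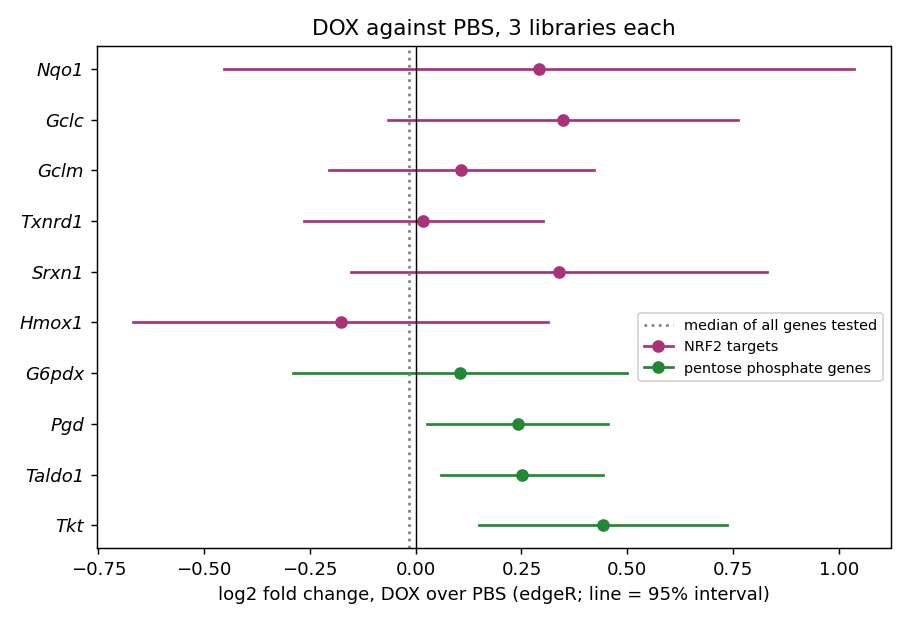
Log2 fold change of DOX over PBS for the 10 genes (horizontal axis, edgeR fit, 3 libraries per group), with points for estimates, lines for 95% intervals and a dotted line at the median of all genes tested. The intervals of Pgd, Taldo1 and Tkt lie above 0 before adjustment, that of Nqo1 is the widest, and none of the genes passed after adjustment.

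Nqo1, the quinone reductase often used as the readout of NRF2 activity (chromosome 8, 107388225 to 107403206 in GRCm38), stood at 40.0, 46.8 and 34.6 CPM in PBS replicates 1 to 3. In DOX replicates 1 to 3 it stood at 23.6, 59.5 and 65.5 CPM. DOX replicate 1 was thus the lowest of the 6 libraries, and DOX replicates 2 and 3 were the highest. The means were 40.5 ± 6.16 and 49.5 ± 22.6 CPM (SD, n = 3 each). DOX over PBS gave 0.29 on the log2 scale (SE 0.33), a ratio of 1.22 whose 95% interval spans 0.731 to 2.05 (edgeR adjusted p = 0.794). Without DOX replicate 1 it was 0.64 (adjusted p = 0.216), and without DOX replicate 3 it was 0.04 (adjusted p = 0.989).

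Srxn1, sulfiredoxin, which repairs overoxidised peroxiredoxins (chromosome 2, 152105516 to 152111376), showed the same arrangement. Its PBS libraries held 86.3, 108.8 and 92.9 CPM and its DOX libraries 79.9, 145.0 and 139.3 CPM. Again DOX replicate 1 lay below every PBS library and the other two DOX libraries lay above all of them. Its log2 difference, DOX minus PBS, was 0.34 (SE 0.21, adjusted p = 0.625), 0.57 without DOX replicate 1 (adjusted p = 0.216) and 0.20 without DOX replicate 2 (adjusted p = 0.823).

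Txnrd1, the cytosolic thioredoxin reductase (chromosome 10, 82833951 to 82897712), varied least among the NRF2 targets. It stood at 204.6, 235.5 and 241.8 CPM in PBS and at 202.2, 251.8 and 236.7 CPM in DOX. The highest library exceeded the lowest by 1.25-fold. DOX differed from PBS by 0.02 on the log2 scale (SE 0.12, adjusted p = 0.974), and the 95% interval of the ratio spans 0.832 to 1.23.

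Gclc and Gclm encode the catalytic and the modifier subunit of glutamate-cysteine ligase, the rate-limiting enzyme of glutathione synthesis. Gclc (chromosome 9, 77754535 to 77794485) stood at 91.5, 109.0 and 127.4 CPM in PBS and at 109.5, 137.0 and 170.9 CPM in DOX. Its groups overlapped, with DOX replicates 2 and 3 above all PBS libraries and DOX replicate 1 among them. On the log2 scale DOX was 0.35 above PBS (SE 0.18, adjusted p = 0.561), a ratio of 1.27 whose 95% interval spans 0.956 to 1.70. Without DOX replicate 3 that difference was 0.18, and without DOX replicate 1 it was 0.50. Gclm (chromosome 3, 122245557 to 122270732) stood at 166.5, 189.3 and 193.5 CPM in PBS and at 171.8, 186.8 and 233.4 CPM in DOX. Only DOX replicate 3 lay above the PBS libraries. For Gclm the log2 difference was 0.11 (SE 0.14, adjusted p = 0.820), and -0.028 without that library. Of the 50-base stretches of annotated Gclm transcripts, 3.92% also occur in other genes, Ppia among them, and its exons overlap those of Gm17494 on the opposite strand and of Gm6061 on the same strand, so that its level is uncertain in that respect.

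Hmox1, heme oxygenase, which is also induced by heme and is high in macrophages (chromosome 8, 75093621 to 75100589), had another order of libraries than the other NRF2 targets. It stood at 80.4, 104.5 and 82.7 CPM in PBS and at 98.9, 53.2 and 84.5 CPM in DOX. DOX replicate 2, among the highest for Nqo1 and Srxn1, was the lowest for Hmox1. DOX minus PBS came to -0.18 on the log2 scale (SE 0.21, adjusted p = 0.811), and to 0.049 without DOX replicate 2. The summed level of 10 macrophage markers was 1105 to 1135 CPM in PBS and 1307, 1172 and 977.4 CPM in DOX replicates 1 to 3. The summed level of 7 erythroid markers was 72.8, 54.65 and 91.4 CPM in PBS replicates 1 to 3 and 80.3, 24.0 and 178.5 CPM in DOX. That sum and Hmox1 were both lowest in DOX replicate 2. Their highest libraries differed, DOX replicate 3 for the sum and PBS replicate 2 for Hmox1. The part of these markers in the Hmox1 values was not tested. Of 8 genes of heme handling, all tested, 0 changed and 4 had a positive log2 fold change. Hmox2, the constitutive heme oxygenase, had a log2 fold change of 0.23 (adjusted p = 0.508), and Hpx, the plasma heme scavenger, of -0.40 (adjusted p = 0.642).

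**Figure D2:**
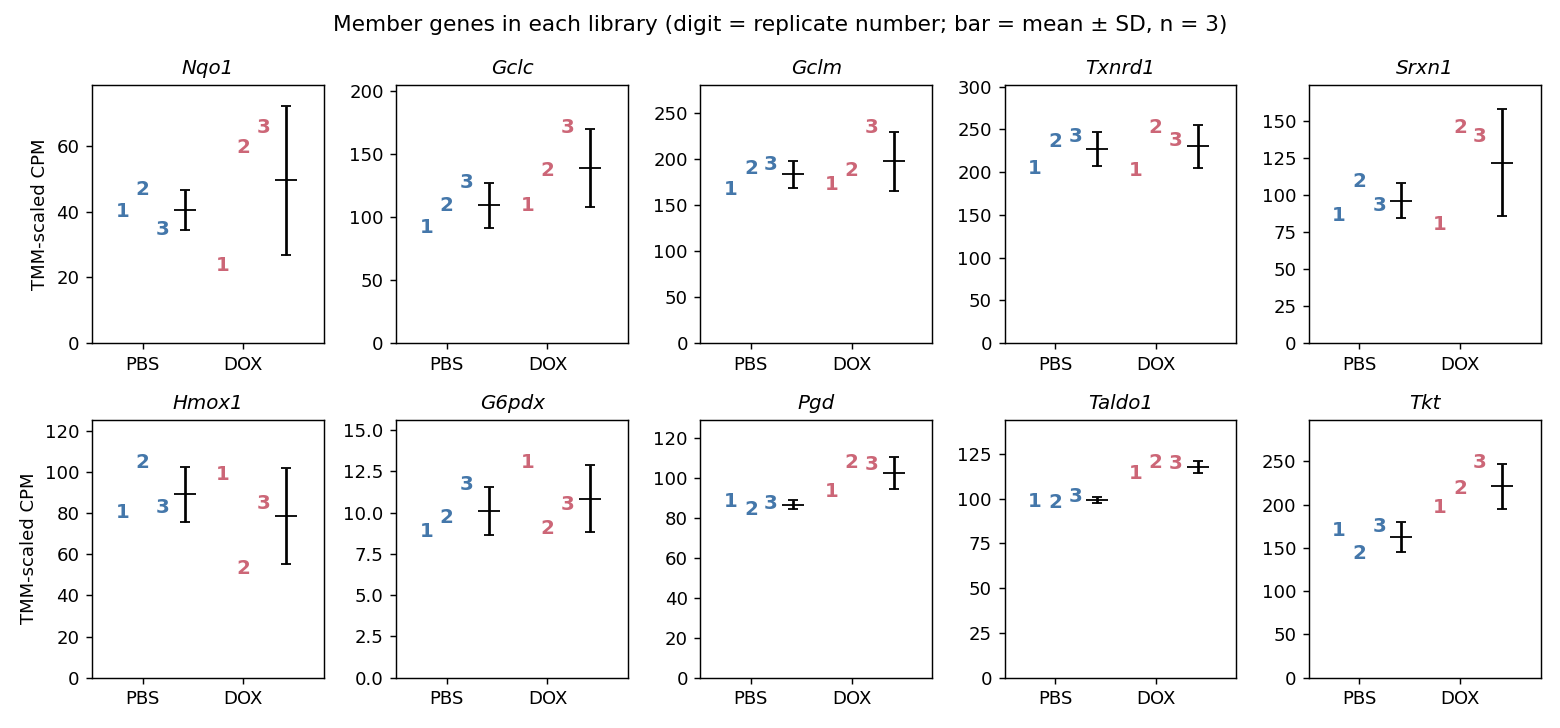
Level of each of the 10 genes in TMM-scaled CPM (vertical axes from 0) in the PBS and DOX libraries, where each digit is a library's replicate number and the black bar is the mean ± SD (n = 3). DOX replicate 1 is the lowest of all libraries for Nqo1 (23.6 CPM) and Srxn1 (79.9 CPM), while Pgd, Taldo1 and Tkt show no overlap of the groups on this scale.

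Among the pentose phosphate genes, Tkt, transketolase of the non-oxidative branch (chromosome 14, 30548359 to 30574720), had the largest log2 fold change of the 10 genes. It stood at 170.1, 143.3 and 174.5 CPM in PBS and at 196.5, 218.2 and 248.5 CPM in DOX, with every DOX library above every PBS library. The means were 162.6 ± 16.9 and 221.0 ± 26.1 CPM (SD, n = 3 each). That is a log2 difference of 0.44 (SE 0.13), a ratio of 1.36 whose 95% interval spans 1.11 to 1.67. It did not pass over all genes (edgeR adjusted p = 0.380, DESeq2 adjusted p = 0.0849). An exact permutation test of the libraries, two-sided, gave p = 0.1, below which a design of this size cannot go.

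Taldo1, transaldolase, another enzyme of the non-oxidative branch (chromosome 7, 141392199 to 141402968), was nearly constant within each group. Its values were 98.4, 97.7 and 100.9 CPM in PBS and 114.0, 120.1 and 119.4 CPM in DOX. The groups did not overlap, and the log2 difference was 0.25 (SE 0.08, adjusted p = 0.423). Of the 50-base stretches of annotated Taldo1 transcripts, 6.67% also occur in Gm17823, which makes its level uncertain to that extent.

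Pgd, the second NADPH-producing dehydrogenase of the oxidative branch (chromosome 4, 149149991 to 149166771), stood at 88.4, 84.3 and 87.4 CPM in PBS and at 93.0, 107.7 and 106.6 CPM in DOX. Its groups did not overlap either, and the log2 difference was 0.24 (SE 0.09, adjusted p = 0.474). Non-overlap with DOX above was thus seen for 3 of the 10 genes, against 7.84% of all genes tested. Scaled by library size only, it was seen for Tkt alone, against 2.56% of all genes tested. On that scale the lowest Taldo1 value in DOX was 107.6 CPM and the highest in PBS 107.8 CPM, and the corresponding values of Pgd were 89.4 and 94.3 CPM. The TMM scaling factors that set these scales apart ranged from 1.007 to 1.068 in PBS and from 0.902 to 1.005 in DOX.

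G6pdx, glucose-6-phosphate dehydrogenase, the entry enzyme of the pathway (chromosome X, 74409483 to 74429194), did not share this arrangement. It stood at 8.86, 9.71 and 11.7 CPM in PBS and at 13.0, 9.01 and 10.5 CPM in DOX, from 305 to 488 counts per library. DOX replicate 1, the lowest DOX library for Pgd, Taldo1 and Tkt, was the highest for G6pdx. DOX minus PBS was 0.10 on the log2 scale (SE 0.17, adjusted p = 0.867; 95% interval of the ratio 0.818 to 1.41), and -0.041 without DOX replicate 1. The level of G6pdx is uncertain in 2 respects. Of its 50-base transcript stretches, 6.46% also occur in G6pd2, and its exons overlap those of Ikbkg on the opposite strand, where the use of strand in counting is not given in the sources used here.

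Levels between genes were compared on the deposited FPKM scale, which is per length. In PBS, Gclm was the highest of the 10 at 92.5 ± 6.99 FPKM, followed by Taldo1 at 81.3 ± 3.81 FPKM (SD, n = 3 each), with no overlap of their libraries. Txnrd1 (59.2 ± 4.95 FPKM), Hmox1 (59.1 ± 6.72 FPKM) and Tkt (52.9 ± 7.15 FPKM) came next and overlapped each other. Pgd (39.6 ± 2.25 FPKM) overlapped Gclc (32.6 ± 5.58 FPKM), and Gclc overlapped Srxn1 (29.4 ± 2.58 FPKM). Nqo1 followed at 12.6 ± 1.53 FPKM and G6pdx was the lowest at 4.52 ± 0.71 FPKM, both apart from their neighbours. Within the pathway, the entry enzyme was thus listed far below Pgd, which takes the following NADPH-yielding step.

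The spread of Nqo1 and Srxn1 between the DOX libraries was also present in other NRF2 targets. DOX replicate 1 was the lowest DOX library for 5 of the 6 NRF2 target members (all but Hmox1), for 3 of the 4 pentose phosphate members and for 14 of 15 tested genes on a list of other NRF2 targets, against 33% of all genes tested. On the last of these lists the exception was Osgin1, for which DOX replicate 1 was the highest DOX library. The count of genes lowest in DOX replicate 1 was chosen after the values were seen, and is given as a description. Other lists showed it too: DOX replicate 1 was also the lowest DOX library for 9 of 12 genes of the lipid synthesis list, 10 of 16 thioredoxin, peroxiredoxin and superoxide enzymes, 7 of 11 glutathione genes and 7 of 11 other NADPH producers. It was so for 5 of 9 hepatocyte markers, 5 of 10 NRF2 regulators and 4 of 8 other pentose phosphate genes. For heme handling it was 3 of 8, for immediate early and heat shock genes 2 of 8 and for neutrophil markers 1 of 6. Among the tested markers of cholangiocytes, macrophages, endothelium, stellate cells and erythroid cells it was so for 0 genes. On the list of other NRF2 targets, 6 genes had DOX replicate 1 below and DOX replicates 2 and 3 above every PBS library, as had Nqo1 and Srxn1, against 1.63% of all genes tested. They were Mgst1, a microsomal glutathione transferase, Aox1, aldehyde oxidase, Ephx1, microsomal epoxide hydrolase, Ugdh, UDP-glucose dehydrogenase, Abcc4, an efflux pump, and Ftl1, the ferritin light chain. Ephx1 stood at 520.1 to 558.5 CPM in PBS and at 431.4, 808.5 and 892.4 CPM in DOX replicates 1 to 3. Ugdh stood at 225.4 to 287.8 CPM in PBS and at 191.5, 366.2 and 471.3 CPM in DOX.

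**Figure D3:**
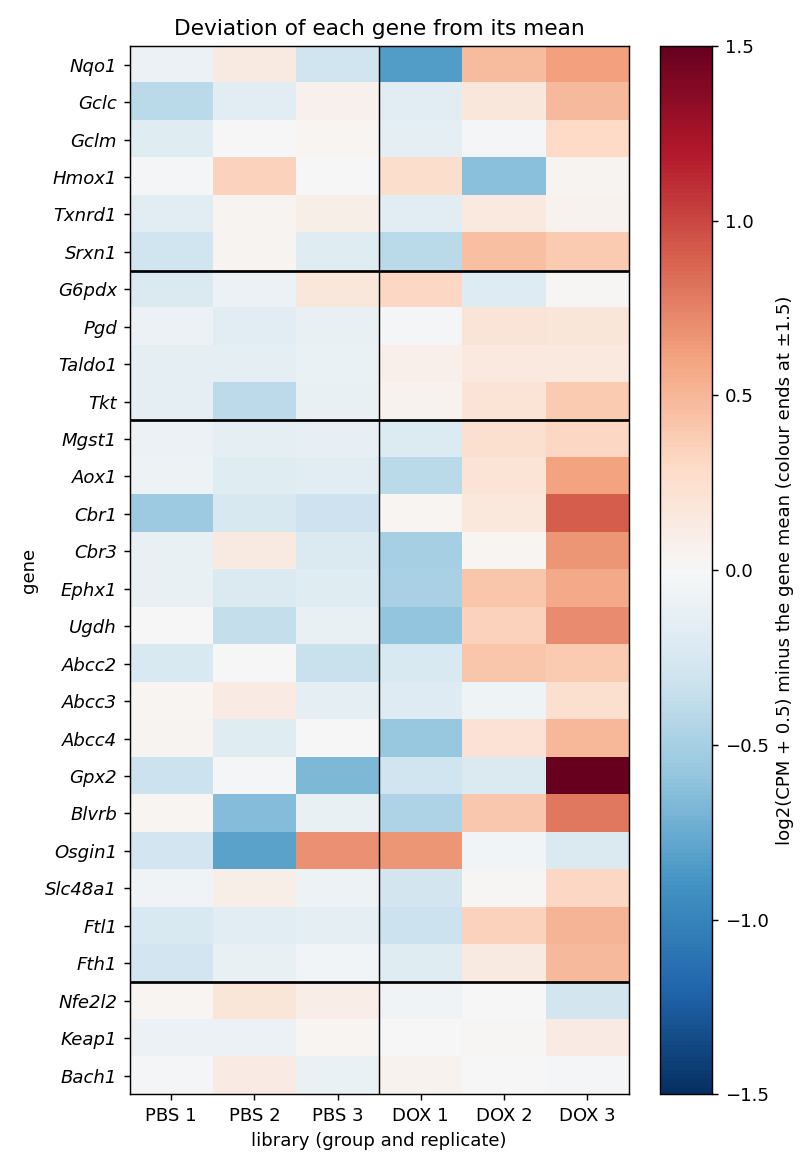
Deviation of each tested gene from its own mean over the 6 libraries, in log2(CPM + 0.5), with libraries as columns and blocks, from top to bottom, for the 6 NRF2 target members, the 4 pentose phosphate members, 15 other NRF2 targets and 3 regulators. Blue cells in DOX replicate 1 and red cells in DOX replicates 2 and 3 run through Nqo1, Srxn1, Ephx1 and Ugdh. Other rows depart from this, among them Hmox1, G6pdx, Osgin1, Tkt, Taldo1 and Cbr1, which lie above their mean in DOX replicate 1.

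Compared with PBS, 0 of the 15 other NRF2 targets tested changed, with a median log2 fold change of 0.34, against -0.02 over all genes tested. Cbr1, a carbonyl reductase, stood at 106.5, 132.6 and 125.2 CPM in PBS and at 159.2, 174.5 and 293.7 CPM in DOX. Its groups did not overlap, but the difference of 0.78 on the log2 scale missed the threshold (SE 0.22, adjusted p = 0.375). Abcc2, the canalicular conjugate pump, had a log2 fold change of 0.40 (adjusted p = 0.509), and Blvrb, a biliverdin reductase, of 0.56 (adjusted p = 0.569). Gpx2 stood at 0.776 to 1.51 CPM in PBS and at 1.15, 1.24 and 5.35 CPM in DOX, so that its log2 fold change of 1.18 rested on DOX replicate 3 (adjusted p = 0.561). Slc7a11, the cystine transporter subunit, was below the count filter.

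Nfe2l2, the gene of NRF2, stood at 102.6, 113.5 and 107.6 CPM in PBS and at 97.1, 101.0 and 83.0 CPM in DOX. Every DOX library lay below every PBS library, as for 9.02% of all genes tested, and the log2 difference was -0.20 (SE 0.10, adjusted p = 0.557). Keap1 differed by 0.10 (log2, SE 0.085, adjusted p = 0.734) and Bach1 by 0.0039 (log2, SE 0.09, adjusted p = 0.994). Of the 10 regulators tested, 0 changed, 6 had a positive log2 fold change and the median was 0.01. The values ranged from -0.20 to 0.10. Between the highest and the lowest library, Maff, a small MAF gene, differed 1.58-fold and Nfe2l2 1.37-fold. Transcript levels do not report the KEAP1-controlled amount of NRF2 protein.

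Enzymes that work beside the 10 genes were taken from further lists. For glutathione synthesis and recycling, 0 of 11 tested genes changed, with a median log2 fold change of 0.19. Cth, which makes cysteine from cystathionine, stood at 999.8 to 1705 CPM in PBS and at 466.1, 922.5 and 966.0 CPM in DOX, a log2 difference of -0.76 that missed the threshold (SE 0.30, adjusted p = 0.475). Gpx4, the lipid hydroperoxide peroxidase, had a log2 fold change of 0.30 (adjusted p = 0.566). For thioredoxin, peroxiredoxin and superoxide enzymes, 0 of 16 changed and the median was 0.15. Prdx1, a substrate of sulfiredoxin, stood at 682.7 to 697.4 CPM in PBS and at 768.9 to 926.6 CPM in DOX, without overlap on this scale (log2 fold change 0.32, SE 0.12, adjusted p = 0.472). In FPKM, which leaves out the TMM factors, its groups overlapped, with PBS replicate 3 at 525.9 and DOX replicate 1 at 521.6 FPKM. Sesn1 was at 0.50 (SE 0.17, adjusted p = 0.423) and Cat, catalase, at 0.39 (SE 0.19, adjusted p = 0.523).

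The remaining tested genes around the pentose phosphate pathway, 8 in number, showed 0 changes and a median of 0.083 on the log2 scale. Pgls, the lactonase between G6pdx and Pgd, had a log2 fold change of 0.10 (adjusted p = 0.810), Shpk, sedoheptulokinase, of 0.23 (adjusted p = 0.631), and H6pd, the enzyme of the endoplasmic reticulum, of 0.12 (adjusted p = 0.762). Among 11 tested genes of other NADPH production, 0 changed and the median was 0.09. Me1, the cytosolic malic enzyme, which is also an NRF2 target and a lipogenic gene, stood at 60.3, 54.9 and 64.9 CPM in PBS and at 75.3, 116.7 and 157.5 CPM in DOX. All DOX libraries were above all PBS libraries, and the log2 difference was 0.96 (SE 0.23, adjusted p = 0.288). Idh1, the cytosolic isocitrate dehydrogenase, was also without overlap, at a log2 difference of 0.37 (SE 0.12, adjusted p = 0.423).

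On the list of lipid synthesis, whose reductive steps use NADPH, the fitted difference was positive for all 12 tested genes, against 47% of all genes tested. The median log2 fold change of the list was 0.80, against -0.02 over all genes tested, and 0 of the 12 passed over all genes. Not all 12 are enzymes of lipid synthesis. The list also holds regulators and Pklr, a glycolytic pyruvate kinase, at a log2 fold change of 1.35 (edgeR adjusted p = 0.105). By the median deviation of this list from each gene's mean, the libraries ran from PBS replicate 2 (-0.68) through PBS replicate 1 (-0.44), PBS replicate 3 (-0.20), DOX replicate 1 (0.26) and DOX replicate 2 (0.36) to DOX replicate 3 (0.66). The 6 libraries stand in this same order for Tkt, and in other orders for Pgd, Taldo1 and G6pdx. The share of all genes in that order was not counted. For Nqo1 the order was another, with DOX replicate 1 at the low end. Acly, ATP citrate lyase, was at a log2 difference of 0.59 (SE 0.11, adjusted p = 0.196), larger than that of any of the 10 genes.

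**Figure D4:**
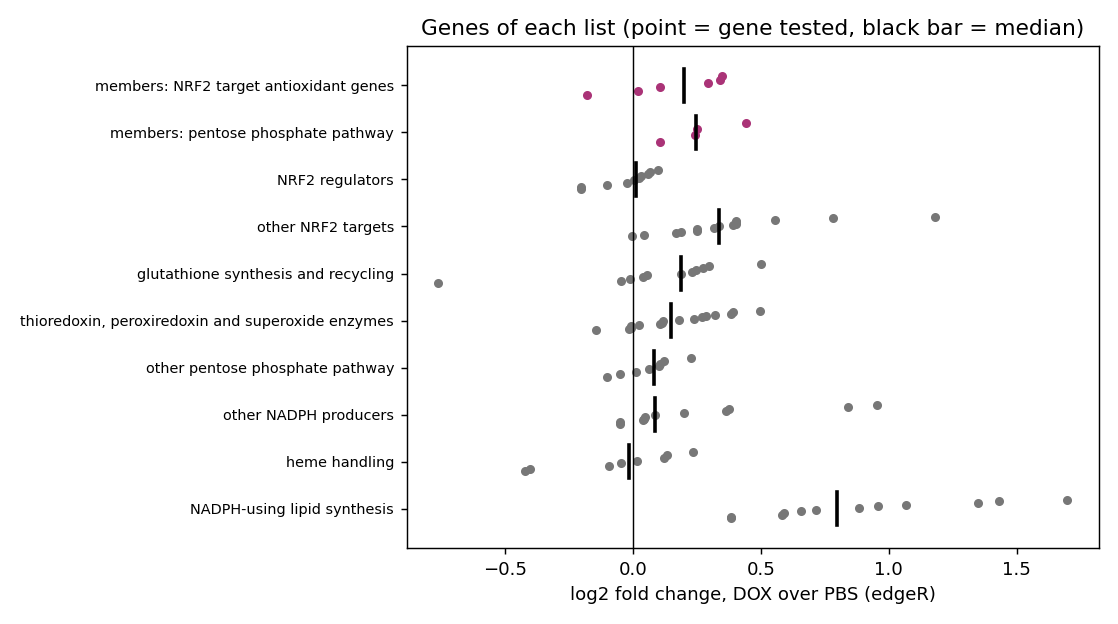
Log2 fold change of DOX over PBS (horizontal axis, edgeR) for each tested gene of the member lists and of 8 context lists, with a black bar at each list's median. Genes of the lipid synthesis list, which also holds regulators and Pklr, lie to the right with a median of 0.80, while the 6 NRF2 target members (0.20), the 4 pentose phosphate members (0.25) and the regulators of NRF2 (0.01) lie closer to 0.

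The genes most like Nqo1 and G6pdx across the 6 libraries were sought among 9352 other tested genes of at least 5 CPM on average, by the root mean square difference of their centred log2 CPM. For Nqo1 they were Entpd5 (0.18), Ces1e (0.20) and Ephx1 (0.21). Entpd5 stood at 295.8, 368.9 and 307.0 CPM in PBS and at 248.4, 455.7 and 472.7 CPM in DOX, and so shared the low DOX replicate 1. For G6pdx they were Mettl1 (0.04), Ufl1 (0.04) and Dnajc3 (0.06). Likeness over 6 libraries is a description and was not tested.

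Markers of other cells were measured beside these genes. The summed level of 10 cholangiocyte markers was 368.9 to 507.0 CPM in PBS and 182.5 to 332.4 CPM in DOX, without overlap, and all 10 had a negative log2 fold change. A large part of that sum came from 1 marker, at 171.3 to 212.1 CPM in PBS and 70.7 to 161.5 CPM in DOX. Singly, DOX lay below PBS without overlap for 5 of the 10, against 9.02% of all genes tested. Tspan8 (-0.81, adjusted p = 0.216) and Cftr (-0.87, adjusted p = 0.350) had the smallest p-values of duct genes together with Cdh1 and Cldn7, and none passed. The summed level of 8 endothelial markers was 133.6, 44.5 and 129.3 CPM in PBS replicates 1 to 3 and 107.4 to 207.8 CPM in DOX, so that PBS replicate 2 stood apart. All 8 had a positive log2 fold change, with 0 passing and a median of 0.88. The summed level of 10 stellate cell markers was 255.5 to 452.5 CPM and 225.7 to 527.0 CPM. Neutrophil markers summed to 14.5 to 28.5 CPM in PBS and 11.5 to 19.1 CPM in DOX. Among immediate early and heat shock genes, Fos stood at 8.54 ± 1.49 CPM in PBS and 4.47 ± 0.713 CPM in DOX (SD, n = 3 each, edgeR adjusted p = 0.216), and all 8 of that list had a negative log2 fold change. The part of these markers in the values of the 10 genes was not tested.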

How the data were processed

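RNA of mouse liver was sequenced from libraries made with a SMARTER kit, per the labels' protocols. The genome builds were GRCm38 and mm10, per the submitters' processing notes. For aligner, counting tool and strand use, nothing is given in the sources used here. Files the authors deposited hold whole-number read counts per gene and FPKM values, and tested on the files, the deposited FPKM equal counts divided by 1 length per gene and the column total (18913 of 18913 genes with counts in at least 2 libraries, relative tolerance 1e-05). Counts of 3 libraries per group went into edgeR 4.0.16 under R 4.3.3 (filterByExpr, TMM scaling, quasi-likelihood test with legacy = TRUE, no block), with Benjamini-Hochberg adjustment over all 13725 genes tested, and the procedure was tested on simulated data. Standard errors come from the F statistic. Permutation tests were exact and two-sided, on log2(CPM + 0.5). The members and all gene lists were chosen with earlier results of these data known. The text names the 10 members, Nfe2l2, Keap1, Bach1, Bche, up to 4 genes of smallest p per list and the genes most like Nqo1 and G6pdx. Genes named for the order of the DOX libraries were chosen after their values were seen. Coordinates and transcript stretches are from GENCODE M21 (GRCm38). Alternatives were RLE and library size scaling, DESeq2 1.42.0, limma-voom (limma 3.58.1), other filters, leaving out each library, the replicate block, and limma with FPKM plus 1 or 0.1 on a log2 scale.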

Additional observations from a re-analysis of the deposited data

How the results depend on the processing

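Under all 15 alternatives, 0 of the 10 genes changed. Nqo1, Gclc, Srxn1, Pgd, Taldo1 and Tkt kept a positive log2 fold change in each, but not its size: over the alternatives it ran from 0.037 to 0.64 for Nqo1, 0.18 to 0.50 for Gclc, 0.16 to 0.57 for Srxn1, 0.10 to 0.31 for Pgd, 0.12 to 0.28 for Taldo1 and 0.30 to 0.53 for Tkt. With library size only, log2(FPKM + 1) and log2(FPKM + 0.1), the values were -0.031, -0.034 and -0.035 for Gclm, -0.11, -0.12 and -0.12 for Txnrd1, -0.032, -0.030 and -0.036 for G6pdx, and 0.11, 0.11 and 0.11 for the median of the pentose phosphate genes. These settings leave out the TMM factors. When 1 library was left out, the log2 fold change ranged from -0.028 to 0.21 for Gclm, from -0.36 to 0.049 for Hmox1, from -0.052 to 0.11 for Txnrd1 and from -0.041 to 0.23 for G6pdx, and the median of the NRF2 targets from 0.02 to 0.35. Over all genes, DESeq2 called 176 of 20910, limma-voom 2 and no filter 61, and the cause was not tested. With the replicate block 21 genes were called, none of them a member. Same-numbered libraries had correlated deviations of 0.22, 0.16 and 0.02. PBS replicates 1 and 2 correlated best with the DOX library of the same number, and PBS replicate 3 with DOX replicate 1 (0.06). These values do not settle whether the numbers mark pairs. The labels give the numbers no meaning, so they were not taken as a pairing. The median of the NRF2 targets was 0.064, 0.0048 and 0.0012 in those 3 settings without TMM factors. In the same settings the median of all genes tested was itself lower, at -0.15, -0.086 and -0.14, against -0.02 with TMM scaling. The members had 305 to 9205 counts in a library.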
